A study of Mus musculus with 16 samples.

Results

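The 10 genes Sparc, Lama1, Lamb1, Lamc1, Col4a1, Col4a2, Dab2, Cubn, Pdgfra and Hnf4a build the basement membrane or mark the extraembryonic endoderm of the mouse embryo. For each gene, the peaks of DNA strand breaks that shared at least 1 bp with the gene body or the 5 kb on either side were taken from 4 deposited peak lists. These windows held 83 of the 103545 listed peaks, and joining peaks that overlapped between lists gave 54 of 60797 regions. The genes were chosen with the peak positions of these lists in view, so numbers of peaks are given as a description, with no test.

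Extraembryonic endoderm is the early lineage that lines the yolk sac, and ES cells can be driven into it by a small set of transcription factors. Its cells secrete a thick basement membrane in which laminin trimers of an alpha, a beta and a gamma chain polymerise, collagen IV forms a second network, and SPARC binds the collagen. The other genes of the set serve uptake from the uterine fluid (Dab2 and Cubn), growth factor signalling (Pdgfra) and the transcription of visceral endoderm genes (Hnf4a).

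Breaks were mapped by SSB-seq, in which a bacterial polymerase adds digoxigenin-labelled nucleotides at nicks and the labelled fragments are immunoprecipitated (IP) and sequenced beside input DNA that was not pulled down. The cells, mouse embryonic stem cells from the strain C57BL/6JRj, grew without serum in 2i medium and LIF (1000 U/ml), which keeps them naive. Groups were the Tdg knockout (KO) with talazoparib, the KO with DMSO, the wild type (WT) with talazoparib and the WT with DMSO, each with 3 IP libraries and 1 input library, 16 in all. TDG is the glycosylase that removes oxidised forms of 5-methylcytosine, and talazoparib is an inhibitor of PARP enzymes. Talazoparib was given at 5 nM for 24 h, while the labels give no time for DMSO. The growth protocol, which is the same for all groups, has 4-OHT at 5 uM for 2 h to remove a Tdg minigene. The labels do not say whether WT cells also received it, nor how many clones were used.

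Each list was called on the libraries of its condition together, so no value has a spread between replicates. Intervals are exact Poisson 95% intervals on IP tags and cover counting error only. The labels put WT and KO libraries on separate flow cells, so the effects of genotype and of sequencing run cannot be told apart. Pooled IP depth was 66.4 to 87.0 M tags and input depth 24.5 to 38.1 M tags. The lists were of unequal length, with 23983 peaks in KO talazoparib, 35459 in KO DMSO, 15544 in WT talazoparib and 28559 in WT DMSO. The smallest fold over input, as the authors scaled it, was 4.0 in each list, and the median peak had only 2.0 to 4.0 input tags. A place where no peak is listed has no value in these tables. Peak lists measure neither expression nor reads over Tdg, so the cell type and the genotype labels were not checked here.

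The sequences below are those of the regions on which the description turns, on GRCm38.p6, the assembly behind mm10, 5′ to 3′ on the strand of the gene. Capitals mark CpG dinucleotides, the sites that DNA methylation and TDG act on. Coordinates of the first 2 lines are those of bases upstream of the transcript starts, credited to RefSeq, whose promoter table held 8 of the 10 genes, all but Lama1 and Lamc1. The other lines are read from RefSeq's GRCm38.p6 chromosome sequence.
The start of Lamb1, chr12:31265043-31265233, plus strand, covered in 2 lists: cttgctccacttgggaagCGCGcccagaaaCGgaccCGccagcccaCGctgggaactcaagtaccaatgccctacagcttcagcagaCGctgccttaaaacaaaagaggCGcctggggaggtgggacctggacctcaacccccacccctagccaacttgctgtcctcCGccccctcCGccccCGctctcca
The start of Dab2, chr15:6386498-6386597, plus strand, in its only peak: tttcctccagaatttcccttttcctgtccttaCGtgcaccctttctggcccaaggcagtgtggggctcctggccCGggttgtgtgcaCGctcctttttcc
Sparc, intron 3, chr11:55417998-55418297, minus strand, found in all 4 lists: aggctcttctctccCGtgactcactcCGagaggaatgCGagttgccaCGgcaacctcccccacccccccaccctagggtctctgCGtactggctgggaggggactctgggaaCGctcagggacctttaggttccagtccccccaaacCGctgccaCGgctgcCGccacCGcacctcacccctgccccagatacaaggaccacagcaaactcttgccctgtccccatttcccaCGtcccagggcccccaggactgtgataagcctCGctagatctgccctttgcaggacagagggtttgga
Col4a1, intron 1 beside the start shared with Col4a2, chr8:11312374-11312515, minus strand, listed in KO cells: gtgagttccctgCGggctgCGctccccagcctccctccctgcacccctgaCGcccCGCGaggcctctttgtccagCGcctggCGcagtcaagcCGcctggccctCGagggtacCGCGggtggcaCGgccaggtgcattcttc
Pdgfra, intron 1, chr5:75156441-75156740, plus strand, listed in KO talazoparib only: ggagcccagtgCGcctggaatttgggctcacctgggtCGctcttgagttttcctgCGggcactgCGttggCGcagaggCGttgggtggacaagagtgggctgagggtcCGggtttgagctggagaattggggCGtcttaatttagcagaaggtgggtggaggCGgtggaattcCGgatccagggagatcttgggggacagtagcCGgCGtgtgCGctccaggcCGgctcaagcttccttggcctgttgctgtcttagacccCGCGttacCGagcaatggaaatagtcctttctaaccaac
Hnf4a, between its distal and proximal starts, chr2:163534989-163535288, plus strand, listed in KO cells: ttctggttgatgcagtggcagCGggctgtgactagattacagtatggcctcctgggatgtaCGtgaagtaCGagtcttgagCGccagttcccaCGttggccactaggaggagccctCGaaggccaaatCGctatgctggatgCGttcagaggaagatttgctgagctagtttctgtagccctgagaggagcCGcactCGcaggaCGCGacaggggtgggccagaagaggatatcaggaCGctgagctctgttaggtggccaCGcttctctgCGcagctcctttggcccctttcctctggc
The stretches at Lamb1 and Dab2 held 10 and 3 CpG, and those at Sparc, Col4a1, Pdgfra and Hnf4a 12, 12, 17 and 15.

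Across the set, peaks were fewest in WT talazoparib, which is also the shortest list. The windows held 18 peaks in KO talazoparib, 30 in KO DMSO, 8 in WT talazoparib and 27 in WT DMSO. All 10 genes had a peak in KO talazoparib, 7 in KO DMSO, 5 in WT talazoparib and 9 in WT DMSO. Of 21938 protein-coding genes, 58.9% had a peak in KO talazoparib, 66.8% in KO DMSO, 48.8% in WT talazoparib and 60.9% in WT DMSO by the same rule. The windows of the set are long, at 38.7 to 225 kb. Among 7035 protein-coding genes with windows of such lengths the shares were 72.2%, 79.9%, 62% and 74.2% in the same order of lists, so all but the counts of 10 and 9 were below this background. The order of treatments depended on the threshold. At a fold of at least 6, 3 genes had a peak in KO talazoparib against 6 in KO DMSO. With equal numbers of best-scoring peaks per list, WT talazoparib had 8 peaks at 5 genes, against 7 at 4 in WT DMSO. Over the 1142 kb of all windows, the density was 1.58 peaks per 100 kb in KO talazoparib, 2.63 in KO DMSO, 0.701 in WT talazoparib and 2.37 in WT DMSO. Summed over their windows, the 7035 genes had 1.83, 2.67, 1.2 and 2.12 peaks per 100 kb. In that sum a peak or base in overlapping windows counts for each window, while in the set it counts once. Sparc held 10 of the 27 WT DMSO peaks, and without its window the set had 1.36, 2.09, 0.544 and 1.54 peaks per 100 kb. These are below the pooled values of the 7035 genes, but no dense gene was left out of those. Sparc was left out after seeing the data. The median per gene was 1.48, 2.1, 0.342 and 1.83 peaks per 100 kb in the set with Sparc. For the 7035 genes the medians were 1.62, 2.12, 1.11 and 1.76.

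**Figure D1:**
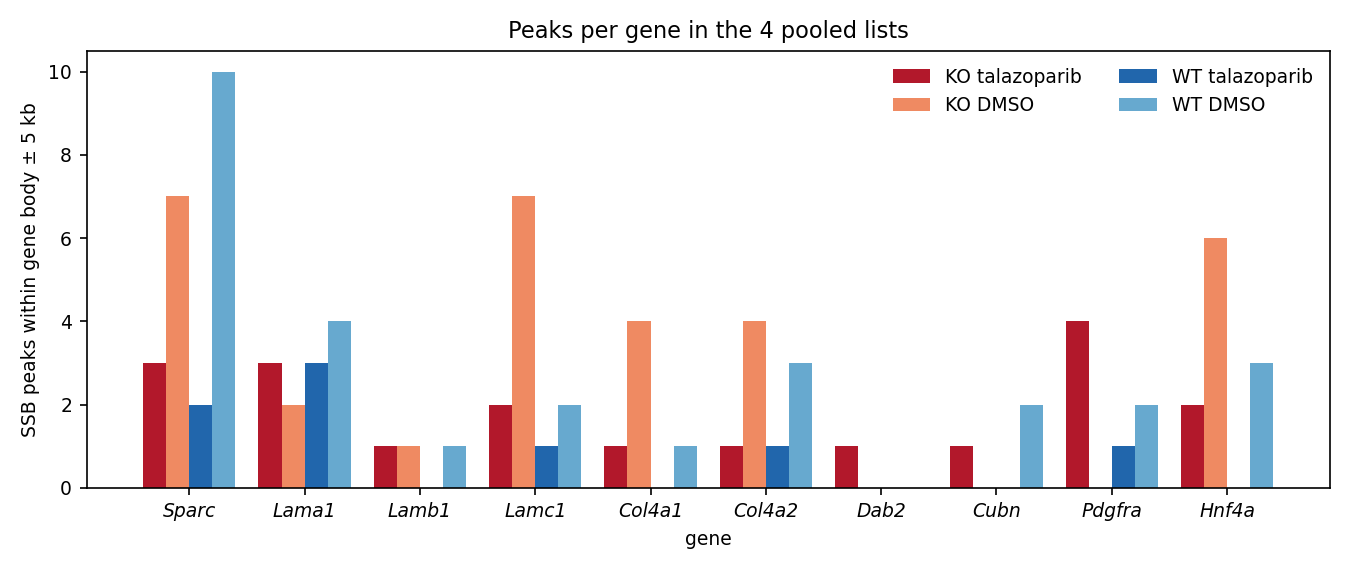
Number of peaks (vertical axis) within the gene body or 5 kb of each of the 10 genes (horizontal axis), with a bar for each pooled list. Sparc had 2 peaks in WT talazoparib and 10 in WT DMSO, and Pdgfra had 4 in KO talazoparib and 0 in KO DMSO.

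Among the laminin genes, the signal common to all 4 lists was strongest at the start of Lamc1, which encodes the gamma chain (chr1:153218922-153332786, minus strand). A region over the start and first exon was listed in all 4 conditions, with 42.8 normalized tags (38.0 to 48.1) in KO talazoparib and 46.4 (41.5 to 51.8) in KO DMSO, against 26.2 (22.8 to 29.9) in WT talazoparib and 24.0 (20.9 to 27.5) in WT DMSO. Normalized tags are IP tags in the peak per 10000000 IP tags of the condition. Both KO values were above both WT values beyond counting error, and within each genotype the intervals of talazoparib and DMSO overlapped. The peaks differed in width, however, at 1770 and 2645 bp in the KO lists and 1187 and 1299 bp in the WT lists. Per base, relative to the mean of the same IP over the genome, density was 6.41 in KO talazoparib, 4.65 in KO DMSO, 5.84 in WT talazoparib and 4.90 in WT DMSO, and this order no longer separated KO from WT. Input tags there were 20.0, 13.5, 9.0 and 11.5 in the same order of lists.

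Away from its start, Lamc1 had 6 regions in 1 list only, all of them in KO DMSO, with 3.54 to 9.62 normalized tags. They ran from the first intron to just past the last exon, 2.89 to 114.63 kb from the start, and 2 of them lay in exons 25 and 28. One more region, 115.88 kb from the start and downstream of the gene, had 6.17 normalized tags in KO talazoparib and 4.2 in WT DMSO, with overlapping intervals of 4.43 to 8.37 and 2.95 to 5.80. That region was listed in neither KO DMSO nor WT talazoparib.

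Lama1, the gene of the alpha chain of the earliest embryonic laminin (chr17:67697259-67822647, plus strand), had 3 peaks in KO talazoparib, 2 in KO DMSO, 3 in WT talazoparib and 4 in WT DMSO. Near its start, KO talazoparib had a peak of 8.81 normalized tags (6.70 to 11.4) centred 1.35 kb into the gene, which shared bases with the KO DMSO peak only. Over the start itself the peaks had 24.9 normalized tags (21.3 to 28.9) in KO DMSO, 10.1 (8.05 to 12.5) in WT talazoparib and 19.3 (16.5 to 22.5) in WT DMSO, centred 0.28, 0.24 and 0.08 kb into the gene. In WT cells the talazoparib peak was the narrower, at 773 bp against 1194 bp with DMSO. Density in WT was 3.45 with talazoparib and 4.28 with DMSO. The KO DMSO peak was the widest, at 1680 bp, and its density of 3.92 was below that of WT DMSO. Upstream, a region at -3.06 kb from the start had 4.89 normalized tags in KO talazoparib and 3.45 in WT DMSO. An intron 24 region had 8.83 in WT talazoparib and 8.33 in WT DMSO and was listed in neither KO condition, and an intron 3 region had 4.53 in WT talazoparib only.

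The highest tag counts of the whole set were in intron 5 of Lama1, 44.14 kb from the start, in a region of which 51.6% is soft-masked repeat sequence. The region had 60 normalized tags (54.2 to 66.2) in KO talazoparib, 50.7 (45.5 to 56.3) in KO DMSO and 53.7 (48.9 to 58.8) in WT DMSO, and was not listed in WT talazoparib. Its fold over input was only 5.57, 4.5 and 4.76 in the lists that held it, where the smallest listed fold was 4.0. The missing WT talazoparib peak therefore gives no measure of a loss of tags. Input DNA was also high there, with 30.5, 28.0 and 43.0 input tags in these lists and a density of 4.54, 4.76 and 5.97 times the mean of the input. The median input density over all peaks was 0.561, 0.426 and 0.417 in the same lists. The part of repeat mapping in this value was not tested.

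Lamb1, the gene of the beta chain (chr12:31265234-31329644, plus strand), had 1 peak in each of 3 lists and none in WT talazoparib. In KO talazoparib the peak had 9.26 normalized tags (7.09 to 11.9) over 1010 bp, was centred 1.35 kb into the gene and did not reach the WT DMSO peak. The peak had 15.7 normalized tags (12.9 to 18.9) over 2085 bp in KO DMSO and 4.2 (2.95 to 5.80) over 500 bp in WT DMSO, and both covered the start whose upstream bases are printed above. Per base the 3 peaks were close, at 2.43 in KO talazoparib, 1.99 in KO DMSO and 2.22 in WT DMSO. At Lama1 and Lamb1 alike, the KO talazoparib peak was thus centred 1.35 kb past the start, while the KO DMSO peak spanned the start. This was not so at Lamc1 or at Col4a1, where the KO talazoparib peak covered the start, centred at -529 bp and 76 bp. The difference between treatments was not tested.

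**Figure D2:**
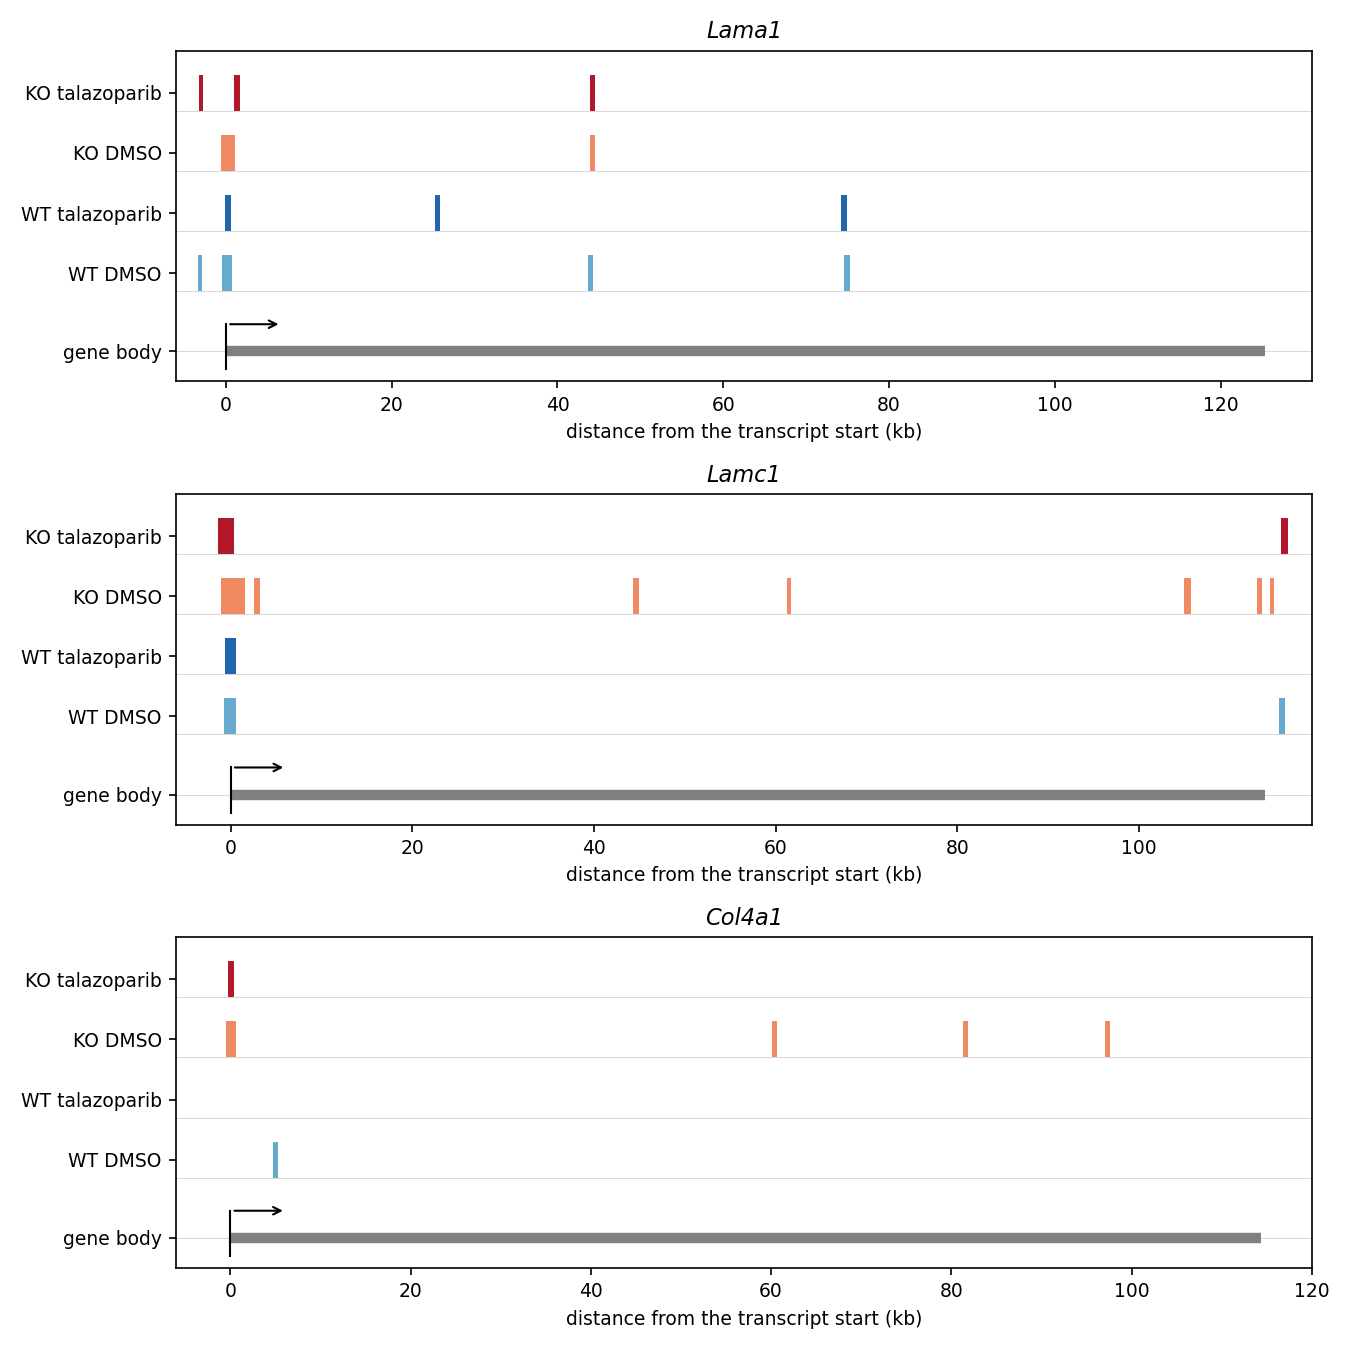
Positions of peaks at Lama1, Lamc1 and Col4a1 by distance from the transcript start in kb (horizontal axis), in a row for each list, with the gene body as a grey bar and the arrow in the direction of transcription. Boxes show position and width only. All lists had a peak over the Lamc1 start, and the 6 further Lamc1 regions of 1 list were all in KO DMSO.

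Col4a1 and Col4a2 encode the chains of the common collagen IV trimer and lie head to head on chromosome 8 (Col4a1 at 11198423 to 11312826, minus strand, and Col4a2 at 11312805 to 11449287, plus strand), so a peak at their common start counts for both. That region was listed in KO cells only, with 10.2 normalized tags (7.95 to 13.0) in KO talazoparib and 14.4 (11.7 to 17.5) in KO DMSO, over 751 and 1053 bp. Its density was nearly equal, at 3.61 in KO talazoparib and 3.62 in KO DMSO, and input tags were 6.5 in each. It was the region of the set richest in CpG, with 9.68 per 100 bp and 70.2% GC. In both WT lists no peak was listed there.

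Inside the collagen genes, peaks were weak and mostly in 1 list. Col4a1 had 3 more regions in KO DMSO alone, in introns 2, 24 and 40, with 3.69 to 6.65 normalized tags, and 1 in WT DMSO alone, in intron 1, with 3.28. The last also lies in the Col4a2 window, 262 bp inside its edge. Col4a2 had 1 region in both DMSO lists, in intron 4, with 4.12 normalized tags in KO DMSO and 3.51 in WT DMSO. Its other regions were 2 in KO DMSO with 3.54 and 6.15, 1 in WT talazoparib with 2.68 on 0.5 input tags, and 1 in WT DMSO past the gene end with 2.99.

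Sparc encodes a secreted protein that binds collagen IV and is abundant in parietal endoderm (chr11:55394500-55423183, minus strand). It had 3 peaks in KO talazoparib, 7 in KO DMSO, 2 in WT talazoparib and 10 in WT DMSO, in a window of only 38.7 kb. In WT DMSO that was 25.9 peaks per 100 kb, and 0 of the 7035 genes with windows of the set's lengths had more. In KO DMSO, at 18.1 peaks per 100 kb, 10 of those genes had more, and in KO talazoparib and WT talazoparib, at 7.76 and 5.17, 202 and 215 had more. Talazoparib lists thus held fewer Sparc peaks than DMSO lists in both genotypes, and they are also the shorter lists. The 10 WT DMSO peaks were mostly weak, with 2.87 to 9.42 normalized tags and a density of 1.52 to 2.44. By score they stood from 22.2% to 94.5% of the way down their list. The Sparc window is also the shortest of the set, so it sets the lower limit of the lengths compared.

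Intron 3 of Sparc, centred 2.24 kb from the transcript start, was listed in all 4 conditions. It had 11 normalized tags (8.61 to 13.8) in KO talazoparib, 12.8 (10.3 to 15.8) in KO DMSO, 7.28 (5.57 to 9.35) in WT talazoparib and 7.47 (5.77 to 9.52) in WT DMSO. Within each genotype the intervals overlapped, and that of KO DMSO lay above both WT intervals. Per base the order was 3.71 in KO talazoparib, 2.78 in KO DMSO, 1.65 in WT talazoparib and 2.44 in WT DMSO, so the narrow KO talazoparib peak, at 785 bp, was the densest. The printed 300 bp lie in the 712 bp that all 4 peaks share.

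At the Sparc start no peak was listed in KO talazoparib, and KO DMSO had a broad peak of 2201 bp with 17.6 normalized tags (14.6 to 21). WT talazoparib had 6.44 (4.84 to 8.41) centred 123 bp into the gene, and WT DMSO had 4.25 (2.99 to 5.86) centred at -1292 bp. The WT peaks thus met only through the KO DMSO peak. They were narrower, at 886 and 661 bp. Per base the values were closer, at 2.11 in KO DMSO, 1.93 in WT talazoparib and 1.70 in WT DMSO. Past the gene end, at 27.75 kb, a region had 9.56 in KO talazoparib, 6.80 in KO DMSO and 9.42 in WT DMSO. It was not listed in WT talazoparib. In the lists that held it, widths were 1062, 634 and 1401 bp and density was 2.38, 2.84 and 1.78.

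Of the Sparc regions in a pair of lists, those at 5.80 kb in intron 3 and 15.27 kb in intron 7 were in both DMSO lists, with 6.22 and 10.2 normalized tags in KO DMSO and 3.33 and 3.68 in WT DMSO. The KO DMSO peaks there were wider, at 850 and 1091 bp against 500 bp in WT DMSO. Density was 1.94 and 2.47 in KO DMSO and 1.77 and 1.95 in WT DMSO. The region at 24.69 kb in intron 11 had 4.06 in KO talazoparib and 7.18 in WT DMSO. Its peaks were 500 and 1084 bp wide, and per base the order was reversed, at 2.15 and 1.75. The other 6 Sparc regions were in 1 list only, 2 in KO DMSO (7.52 and 7.95) and 4 in WT DMSO (2.87 to 6.44). Of these, 2 reached into the 1 kb upstream of the outermost coding start. Just outside the window, 900 bp past its edge, lay another KO DMSO peak with 14.4 normalized tags. The genes most alike in their 4 numbers of peaks, by the smallest sum of absolute differences over the 4 lists, were Tmem104 (sum 1), Wdr25 and Snx29 (2 each), and Gm38392 and Slc9a8 (3 each). Tmem104 had 3 peaks in KO talazoparib, 7 in KO DMSO, 3 in WT talazoparib and 10 in WT DMSO.

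**Figure D3:**
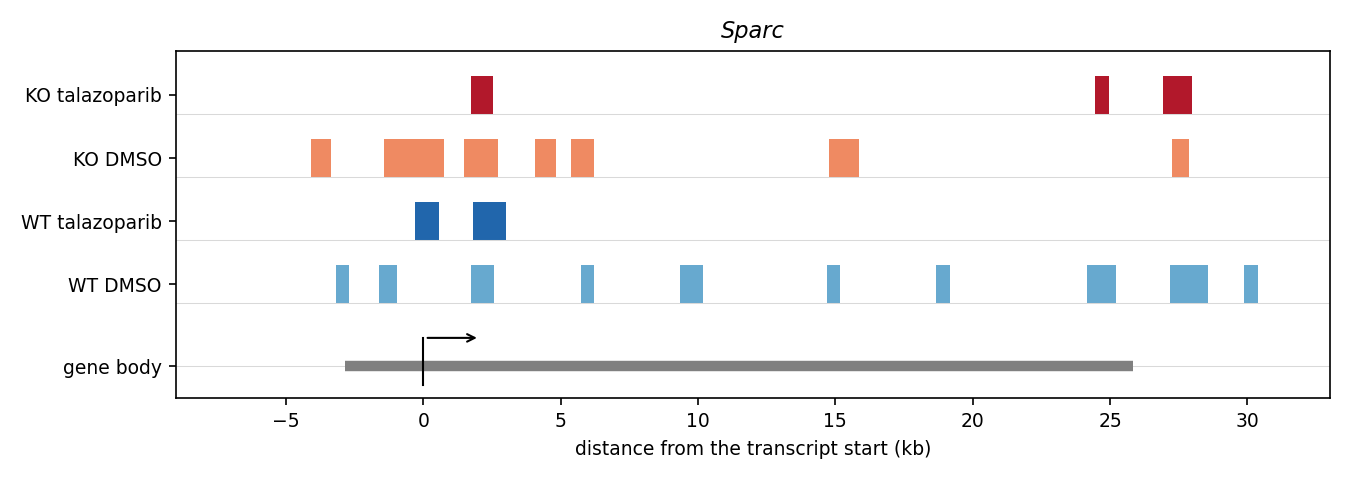
Peaks at Sparc by distance from the transcript start in kb (horizontal axis), in a row for each list, with the gene body as a grey bar and boxes drawn to width. The rows of the KO and WT talazoparib lists hold 3 and 2 peaks, those of the KO and WT DMSO lists 7 and 10 along the gene, and intron 3 is the site where boxes of all 4 rows overlap.

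Dab2 encodes an endocytic adaptor of primitive and visceral endoderm, and Cubn the receptor cubilin that takes up nutrients in the yolk sac. Dab2 (chr15:6299788-6440712, plus strand) had 1 peak in all, in KO talazoparib, with 6.25 normalized tags (4.49 to 8.46) on 3.5 input tags. It covered an internal start of the gene, the printed bases included, and no peak was listed in the other 3 conditions over a window of 151 kb. Cubn (chr2:13276338-13491813, minus strand) had 1 weak intronic peak of 2.93 in WT DMSO. Its other region, with 20.9 (17.6 to 24.7) in KO talazoparib and 17.0 (14.4 to 20.0) in WT DMSO, lay past the gene end, 570 to 582 bp inside the edge of the window, and overlapped the coding start of the neighbouring gene Rsu1. Without that region Cubn had no peak in KO talazoparib.

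Pdgfra, the receptor for platelet-derived growth factor and a marker of primitive endoderm (chr5:75152292-75198215, plus strand), had 4 peaks in KO talazoparib, 0 in KO DMSO, 1 in WT talazoparib and 2 in WT DMSO. All 7 were regions of 1 list. The strongest was in the first intron, centred 4.09 kb from the start and over an internal coding start, with 20.8 normalized tags (17.5 to 24.5) on 10.0 input tags and a density of 4.41 in KO talazoparib. The other 3 peaks of that list had 3.54 to 5.04 and lay from 2.31 kb before the start to 12.3 kb into the gene. In WT talazoparib the peak had 5.37 at 1.00 kb in intron 1, and in WT DMSO the peaks had 4.2 and 2.93, deep in the gene in introns 9 and 19. Both talazoparib lists thus had Pdgfra peaks near the start and both DMSO lists had none there, without a region common to the talazoparib lists. In WT talazoparib this rests on a peak with 2.5 input tags and a fold of 5.26. The KO talazoparib peaks before the start had 2.0 and 2.5 input tags. The difference between treatments was not tested.

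Hnf4a, the nuclear receptor of visceral endoderm (chr2:163506808-163572910, plus strand), had 2 peaks in KO talazoparib, 6 in KO DMSO, 0 in WT talazoparib and 3 in WT DMSO. The gene has a distal and a proximal start 40.4 kb apart. All 8 regions lay between 3.39 kb before and 31.6 kb after the distal start, within the antisense transcript Hnf4aos, and 0 lay in the body of the proximal transcript. All were weak, at 3.16 to 5.95 normalized tags.

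A pair of lists held each of 3 Hnf4a regions. Relative to the proximal start, at -29.95 kb there were 5.95 in KO talazoparib and 5.69 in WT DMSO, at -11.98 kb 3.99 in KO talazoparib and 5.71 in KO DMSO, and at -35.91 kb 4.84 in KO DMSO and 3.16 in WT DMSO. In each pair the intervals overlapped. The region at -11.98 kb is the one printed above, and none of the peaks overlapped a coding start.

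**Figure D4:**
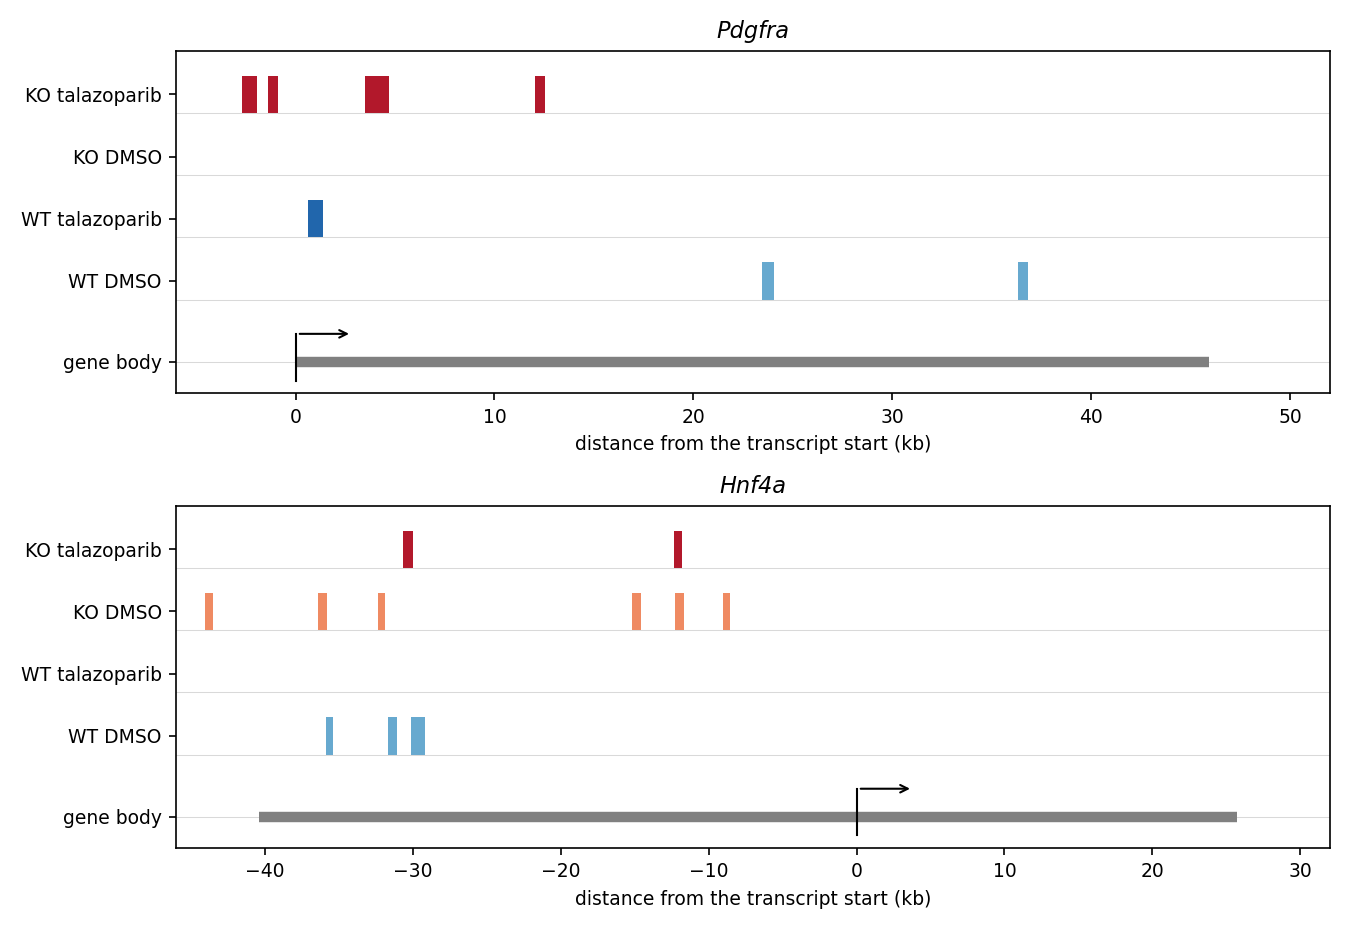
Peaks at Pdgfra and Hnf4a by distance from the transcript start in kb (horizontal axis; for Hnf4a the proximal start), in a row for each list, with the gene body as a grey bar. Pdgfra peaks lie from 2.31 kb before the start to 12.3 kb into the gene with talazoparib, and at 23.76 and 36.57 kb with WT DMSO. The Hnf4a peaks all lie before the proximal start.

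A peak at a coding start, taken as 1 kb upstream to 100 bp downstream, was found at 5 of the 10 genes in KO talazoparib, 6 in KO DMSO, 4 in WT talazoparib and 4 in WT DMSO. Of all protein-coding genes, 42.1%, 52%, 33.4% and 43% had such a peak in these lists. In KO talazoparib the genes were Lamc1, Col4a1, Col4a2, Dab2 and Pdgfra, and in KO DMSO they were Sparc, the 3 laminin genes and both collagen genes. In WT talazoparib they were Sparc, Lama1, Lamc1 and Pdgfra, and in WT DMSO Sparc and the 3 laminin genes. Lamc1 was the gene with a start peak in every list. In each KO list the same peak at the common start counts for both Col4a1 and Col4a2. Some genes have many annotated coding starts, such as Dab2 with 11, Pdgfra with 7 and Sparc with 5. The shares of all protein-coding genes were not matched on this number. The start peaks also depended on the threshold. Distinct peaks at a start numbered 5 in KO talazoparib, 6 in KO DMSO, 4 in WT talazoparib and 5 in WT DMSO. In the same order they numbered 1, 2, 2 and 2 at a fold of at least 6. With at least 3 input tags they numbered 4, 6, 2 and 4. With equal numbers of best-scoring peaks they numbered 4, 4, 4 and 3.

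Most regions of the set were in 1 list, as in the genome at large. Of 54 regions, 35 (64.8%) were in 1 list, against 61.6% of all regions, and 17 (31.5%) were in KO DMSO alone, against 24.8% of all regions. A further 12 (22.2%) were in 2 lists and 4 (7.41%) in 3, against 17.7% and 11.2% of all regions. The 3 in all 4 lists (5.56%, against 9.47% of all regions) were Sparc intron 3, the Lamc1 start and the joined region at the Lama1 start, whose KO talazoparib peak did not reach the start. The combination of KO talazoparib with WT DMSO alone held 5 regions (9.26%, against 2.47% of all regions), at Sparc, Lama1, Lamc1, Cubn and Hnf4a.

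Between treatments within KO, 8 regions were in both lists, 44.4% of the 18 in KO talazoparib (Wilson 95% interval 24.6 to 66.3) and 26.7% of the 30 in KO DMSO (14.2 to 44.4). Over all regions these shares were 59.2% of the KO talazoparib list and 39.7% of the KO DMSO list. Within WT, 5 regions were in both, 62.5% of the 8 in WT talazoparib (30.6 to 86.3) and 18.5% of the 27 in WT DMSO (8.18 to 36.7), against 53.9% and 29.3% of these lists over all regions. Between genotypes, 3 regions were in both talazoparib lists, 16.7% of the KO list and 37.5% of the WT list, against 33.4% and 51.5% over all regions. With DMSO, 11 regions were in both, 36.7% of the KO list and 40.7% of the WT list, against 41.7% and 52.1% over all regions. The intervals cover counting only and compare nothing with the whole lists.

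**Figure D5:**
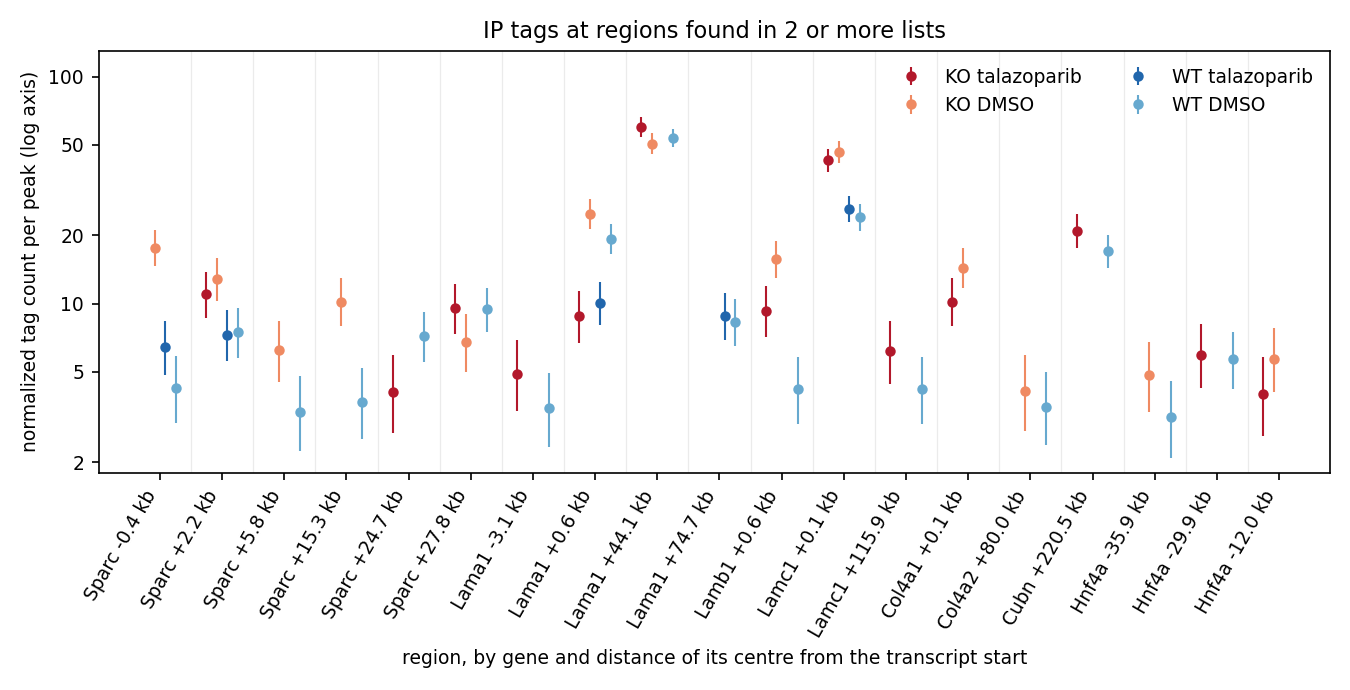
Normalized tags per peak (log axis) at the 19 regions found in 2 or more lists, with exact Poisson 95% intervals of counting error, by gene and distance from the transcript start. A missing point is a list with no peak there. The Lama1 region at 44.1 kb and the Lamc1 start carry the most tags.

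In median tags the peaks of the set were near their list in KO talazoparib, above it in WT talazoparib and below the lists with DMSO. The WT talazoparib value rests on 8 peaks, with a median width of 796 bp against 629 bp in the whole list. Median normalized tags were 7.53 in KO talazoparib, 6.01 in KO DMSO, 6.86 in WT talazoparib and 4.2 in WT DMSO, while all peaks of the lists had medians of 7.45, 6.87, 5.07 and 4.83. Per base the set was lower in each list, with median densities of 2.51, 2.34, 1.92 and 1.77 against 2.91, 2.53, 2.11 and 2.0. Peaks of the set on fewer than 3 input tags made up 33.3%, 50.0%, 62.5% and 33.3%, against 30.0%, 46.5%, 60.7% and 30.9% of all peaks. CpG content was higher at starts than away from them in each list, with medians of 5.96 and 1.69 per 100 bp in KO talazoparib, 5.06 and 1.40 in KO DMSO, 8.71 and 1.18 in WT talazoparib, and 5.79 and 1.10 in WT DMSO. Over all peaks of the set the median was 2.59, 1.57, 2.12 and 1.20 CpG per 100 bp, against 2.40, 2.10, 3.18 and 2.00 in the whole lists. The GC box GGGCGG, on either strand of the central 500 bp, was in 11 of the 54 regions (20.4%), among them the starts of Lamc1 and of Col4a1 with Col4a2, against 30.7% of all regions. The GATA motif AGATAA, the site class of the endoderm factors GATA4 and GATA6, was in 8 (14.8%), against 15.2% of all regions.

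Other genes of the same lineage and matrix were set beside these by lists chosen from textbook knowledge. Of 25 other extraembryonic endoderm genes, 15 had a peak in KO talazoparib (60%), 19 in KO DMSO (76.0%), 10 in WT talazoparib (40.0%) and 13 in WT DMSO (52%), and 6 had a peak in all 4. Of all protein-coding genes the shares were 58.9%, 66.8%, 48.8% and 60.9%, with no match on window length. Gata4, a transcription factor that drives the lineage, had 1, 4, 1 and 3 peaks in the same order of lists, and the tight junction gene Cldn6 had 3, 1, 3 and 2. The keratin gene Krt8 had 3, 1, 1 and 1, the endocytic receptor gene Lrp2 1, 2, 2 and 1, and Emb 1 in each. The secreted protein genes Afp, Apob and Ttr and the gene Nostrin had 0 in every list.

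Of 38 other basement membrane genes, 26 had a peak in KO talazoparib (68.4%), 31 in KO DMSO (81.6%), 25 in WT talazoparib (65.8%) and 33 in WT DMSO (86.8%), and 19 had a peak in all 4. These shares stand beside the same 58.9%, 66.8%, 48.8% and 60.9% of all protein-coding genes, again with no match on window length. Some of these windows are long, such as 650 kb at Lama2 and 319 kb at Col4a6. Among the 7035 genes with windows of 38.7 to 225 kb the shares were 72.2%, 79.9%, 62% and 74.2%. Hspg2, which encodes the proteoglycan perlecan, had 5 peaks in KO talazoparib, 7 in KO DMSO, 2 in WT talazoparib and 6 in WT DMSO. The laminin alpha chain gene Lama5 had 4, 3, 4 and 7 in the same order, and Col18a1 4, 6, 1 and 5. Itga6, a laminin receptor subunit, had 3, 4, 1 and 3, the collagen prolyl hydroxylase gene P3h1 3, 3, 2 and 3, and the fibulin gene Fbln1 3, 3, 1 and 3. Col4a5 and Col4a6, the collagen IV genes of the X chromosome, had 0 in every list.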

How the data were processed

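SSB-seq peak lists of mouse embryonic stem cells, 1 per condition, were used as deposited. Per the submitters' processing notes, HOMER 4.11, Bowtie2 2.3.4.2, R 3.6 and Picard 2.9.2 were used with the build mm10, and no role or setting is stated. Per the file headers, the deposited normalized tag count and input tags are signal values per peak, pooled over libraries. IP tags rescaled to input depth stand in a deposited column of their own unit (other). The authors' fold is the ratio of these to input tags. The deposited p-value of each peak was not used, and the authors' score served to rank the peaks of a list. Pooled IP totals were worked out from the steps of normalized values under 6, of which 100% fell on steps of 0.5 tags within 0.0051. Density is tags per bp over the mean of the library on 2648 Mb of sequenced bases.

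Peaks were joined with genes of GENCODE M21 on GRCm38.p6, chromosomes 1 to 19, X and Y, by windows of the gene body plus 5 kb on each side, and overlapping peaks of different lists (at least 1 bp) were merged into regions. Distances run from the start of the coding transcript with most exons. Peak coordinates are those of the tables, which do not state the base they count from. Scripts ran on Python 3.11.15 with pandas 2.3.3, numpy 2.4.6, scipy 1.17.1 and pysam 0.24.0, and were tested on simulated peaks. No test between conditions was made, because each condition has 1 pooled list. All 10 genes were named, with all regions in 2 or more lists, and in the other gene lists at most 6 genes with a peak in all 4 lists, by total number of peaks (Fbln1 tied with Plod1). Some items are not reported here. The genes, lists and rules were chosen with earlier results of these data known.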

Additional observations from a re-analysis of the deposited data

Results flagged for a closer look

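In 4 counts, talazoparib minus DMSO ran in opposite directions in KO and WT cells, and the difference was not tested, because each condition has 1 pooled list. Genes of the set with a peak differed by 3 in KO (10 with talazoparib, 7 with DMSO) and by -4 in WT (5 with talazoparib, 9 with DMSO). At a fold of at least 6 the KO counts were 3 with talazoparib and 6 with DMSO. With equal numbers of best-scoring peaks they were 9 and 6 in KO and 5 and 4 in WT, so both then ran the same way, and within 1 kb of a start they were 7 and 6 in KO and 4 and 4 in WT. Pdgfra, the growth factor receptor gene, had a difference of 4 peaks in KO and -1 in WT, Cubn 1 in KO and -2 in WT, and Lama1 1 in KO and -1 in WT. The Cubn difference in KO rests on the region at the start of Rsu1.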

How the results depend on the processing

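Of 136 recomputed counts under 11 alternatives, 92 stayed within 1.5 times the value given and 44 moved further. The cause was not tested beyond what each alternative removes. With a window of 1 kb each side of a start, peaks fell to 7 in KO talazoparib, 6 in KO DMSO, 4 in WT talazoparib and 5 in WT DMSO, genes with a peak in WT DMSO to 4, regions of 1 list to 6, and regions common to talazoparib and DMSO to 4 in KO and 3 in WT. With a fold of at least 6, genes with a peak numbered 3 in KO talazoparib and 3 in WT talazoparib, peaks 4, 16, 4 and 11 (KO talazoparib, KO DMSO, WT talazoparib, WT DMSO), regions in all 4 lists 1, and regions common to both treatments 1 in KO and 1 in WT. That reversed the order of KO talazoparib and KO DMSO in genes with a peak (3 and 6). With at least 3 input tags, KO DMSO had 15 peaks, WT talazoparib 3 peaks at 2 genes, and there were 18 regions of 1 list and 3 common to both treatments in WT. At a density of at least 2 times the mean, WT talazoparib had 3 peaks at 2 genes, WT DMSO 8 at 5, and 3 regions were common to both in WT. With the 15526 best-scoring peaks of each list, peaks numbered 11 in KO talazoparib, 14 in KO DMSO and 7 in WT DMSO against 8 in WT talazoparib, genes with a peak in WT DMSO 4, against 5 in WT talazoparib, regions in all 4 lists 1, in 1 list 19, and common to both treatments in KO 4. Left out, in an alternative chosen after seeing the data, the Lama1 intron 5 region and the Rsu1 start took genes with a peak in KO talazoparib to 9 and moved no count by over 1.5 times. Without the Sparc window, likewise added after seeing the data, WT DMSO had 17 peaks, and 3 regions were common to both treatments in WT. No paired analysis was possible because the lists pool the libraries of a condition, and for the same reason no replicate could be left out. The median peak of the set had 2.25 to 3.5 input tags.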
